A study of Mus musculus with 15 samples.

Results

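Skeletal muscle turns an electrical signal into a calcium signal, and 31 genes of that machinery were followed in C2C12 myotubes given the herbal extract Jakyak-gamcho-tang (JGT). C2C12 cells are mouse myoblasts that join into long multinucleated myotubes once serum is lowered. JGT is made by boiling peony and licorice roots in water. The 31 genes were chosen by symbol as the components of calcium release, uptake, storage, triad structure and store-operated entry, out of 42807 gene symbols in the count table. All 31 were in the table, and 30 passed the filter on low counts. Messenger RNA was sequenced from myotubes after 6 days of differentiation and a further 24 h under 1 of 5 conditions, with 3 libraries each and 15 in all. The conditions were no treatment, the vehicle (0.1% DMSO), and JGT at 20, 100 or 500 µg/mL, called below non-treated, vehicle, JGT 20, JGT 100 and JGT 500. The labels name no other agent in these libraries. At JGT 500, viability was calculated to be 80%. By the strength of the stock given in the labels, JGT 500 also held 0.1% DMSO; the sources used here do not give whether the JGT 20 and JGT 100 cultures were brought to that level. The titles place all 15 libraries in the same batch, but the 6 control libraries carry sample codes of another form than the 9 JGT libraries, so JGT and that split cannot be told apart in comparisons with a control. JGT 500 against JGT 20 lies within the JGT side of it. Nothing in the labels says that a group's 3 libraries were separate cultures. The p-values therefore rest on a spread among libraries that may be technical.

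In a muscle fibre, the action potential runs into the transverse tubules, where the dihydropyridine receptor senses the voltage and pulls open the ryanodine receptor in the facing membrane of the sarcoplasmic reticulum. Junctophilins hold both membranes together at the triad, calsequestrin holds calcium inside the store, and the SERCA pumps return it after each contraction. When the store runs low, STIM proteins in the reticulum open ORAI channels in the plasma membrane. C2C12 myotubes build much of this machinery during differentiation, with fetal and adult isoforms side by side.

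Library totals ran from 26012844 to 36854199 expected counts. On the first principal component the JGT 500 libraries lay at -37.2, -17.5 and -39.4, and all other libraries at 0.984 or above. On the second component JGT 500 replicate 2 lay at -25.7, away from the 4.65 and 8.94 of the other JGT 500 libraries. The mitochondrial share of counts was 4.27%, 4.94% and 3.47% in the JGT 500 libraries, against 4.94%, 4.94% and 4.74% in the vehicle libraries. The 18 myotube markers summed to 28400 to 30600 counts per 1000000 (CPM) in JGT 500 libraries and 28900 to 30600 CPM in vehicle libraries, so as a sum the markers of the labelled cell type were abundant in both groups. Within this list 5 of 18 were higher in JGT 500 and 5 lower, Tnni2 (0.31 on the log2 scale) and Des (0.29) among the higher and Myh4 (-0.80), Ckm (-0.48) and Myh8 (-0.38) among the lower. All 8 markers of cycling cells were lower in JGT 500, with a sum of 128 to 131 CPM against 310 to 319 CPM in vehicle. Of 6 tested smooth muscle or myofibroblast markers, 5 were lower, with a sum over all 8 of 1930 to 1990 CPM in JGT 500 against 3150 to 3310 CPM in vehicle. The 10 myoblast and reserve-cell markers summed to 1610 to 1810 CPM in JGT 500 and 1770 to 1820 CPM in vehicle. Much of that sum was Itga7, with 1309, 1216 and 1419 CPM in JGT 500 against 1338, 1292 and 1312 CPM in vehicle and not called. Of the 9 tested, 5 were lower in JGT 500 and 1 higher, with a median log2 fold change of -0.297, and the lower ones were Heyl (-0.86), Vcam1 (-0.53), Cd34 (-0.51), Notch3 (-0.33) and Pax7 (-0.30). Of the 8 cardiac markers, Ryr2 and Myl7 had under 10 counts over all libraries. This list summed to 72.3 to 78.3 CPM in JGT 500 and 78.7 to 87.2 CPM in vehicle. Its most abundant gene was Myl2, which averaged 56.7 CPM in JGT 500 and 62.7 CPM in vehicle and was not called. Of the 4 cardiac markers tested, 1 was lower in JGT 500, Nppb (-0.89), and 0 higher. Of the 8 adipocyte markers 6 had under 10 counts, Adipoq and Lep among them, and the 1 tested, Pparg, was higher (0.27). Whether these shifts in markers have a part in the gene results was not tested, and in bulk RNA fewer cells of a type and less RNA per cell cannot be told apart.

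In JGT 500 the calcium genes differed from vehicle in both directions, by less than 1.5-fold in each called case. Against vehicle, 7 of the 30 tested members rose, 12 fell and 11 did not pass the test, which was edgeR's quasi-likelihood test with Benjamini-Hochberg adjustment over all 14461 tested genes and a threshold of 0.05. Over all tested genes, 16.5% were called higher and 16.8% lower, 33.3% in all, against 63.3% of the members. Among genes with a mean of at least 10 CPM, 40% were called, against 19 of 28 members. The median log2 fold change was -0.0759 over the 30 members and 0.00617 over all tested genes. The members that rose were Jph2, Casq2, Cacng1, Tmem38b, Hrc, Cacnb1 and Tmem38a. Those that fell were Atp2a1, Itpr1, Srl, Cacna1s, Trdn, Fkbp1a, Stim2, Jph1, Mcu, Orai1, Ryr3 and Stim1. The JGT 500 and vehicle ranges did not overlap for 16 of the 30 tested members, where they were apart for 40.1% of all tested genes. All 16 were called members, and the called members whose ranges overlapped were Trdn, Jph1 and Hrc. Of the 19 calls, 13 stayed when any 1 of the 6 libraries was left out, and JGT 500 replicate 2 was the JGT 500 library nearest the vehicle mean for 11 of the 19.

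**Figure D1:**
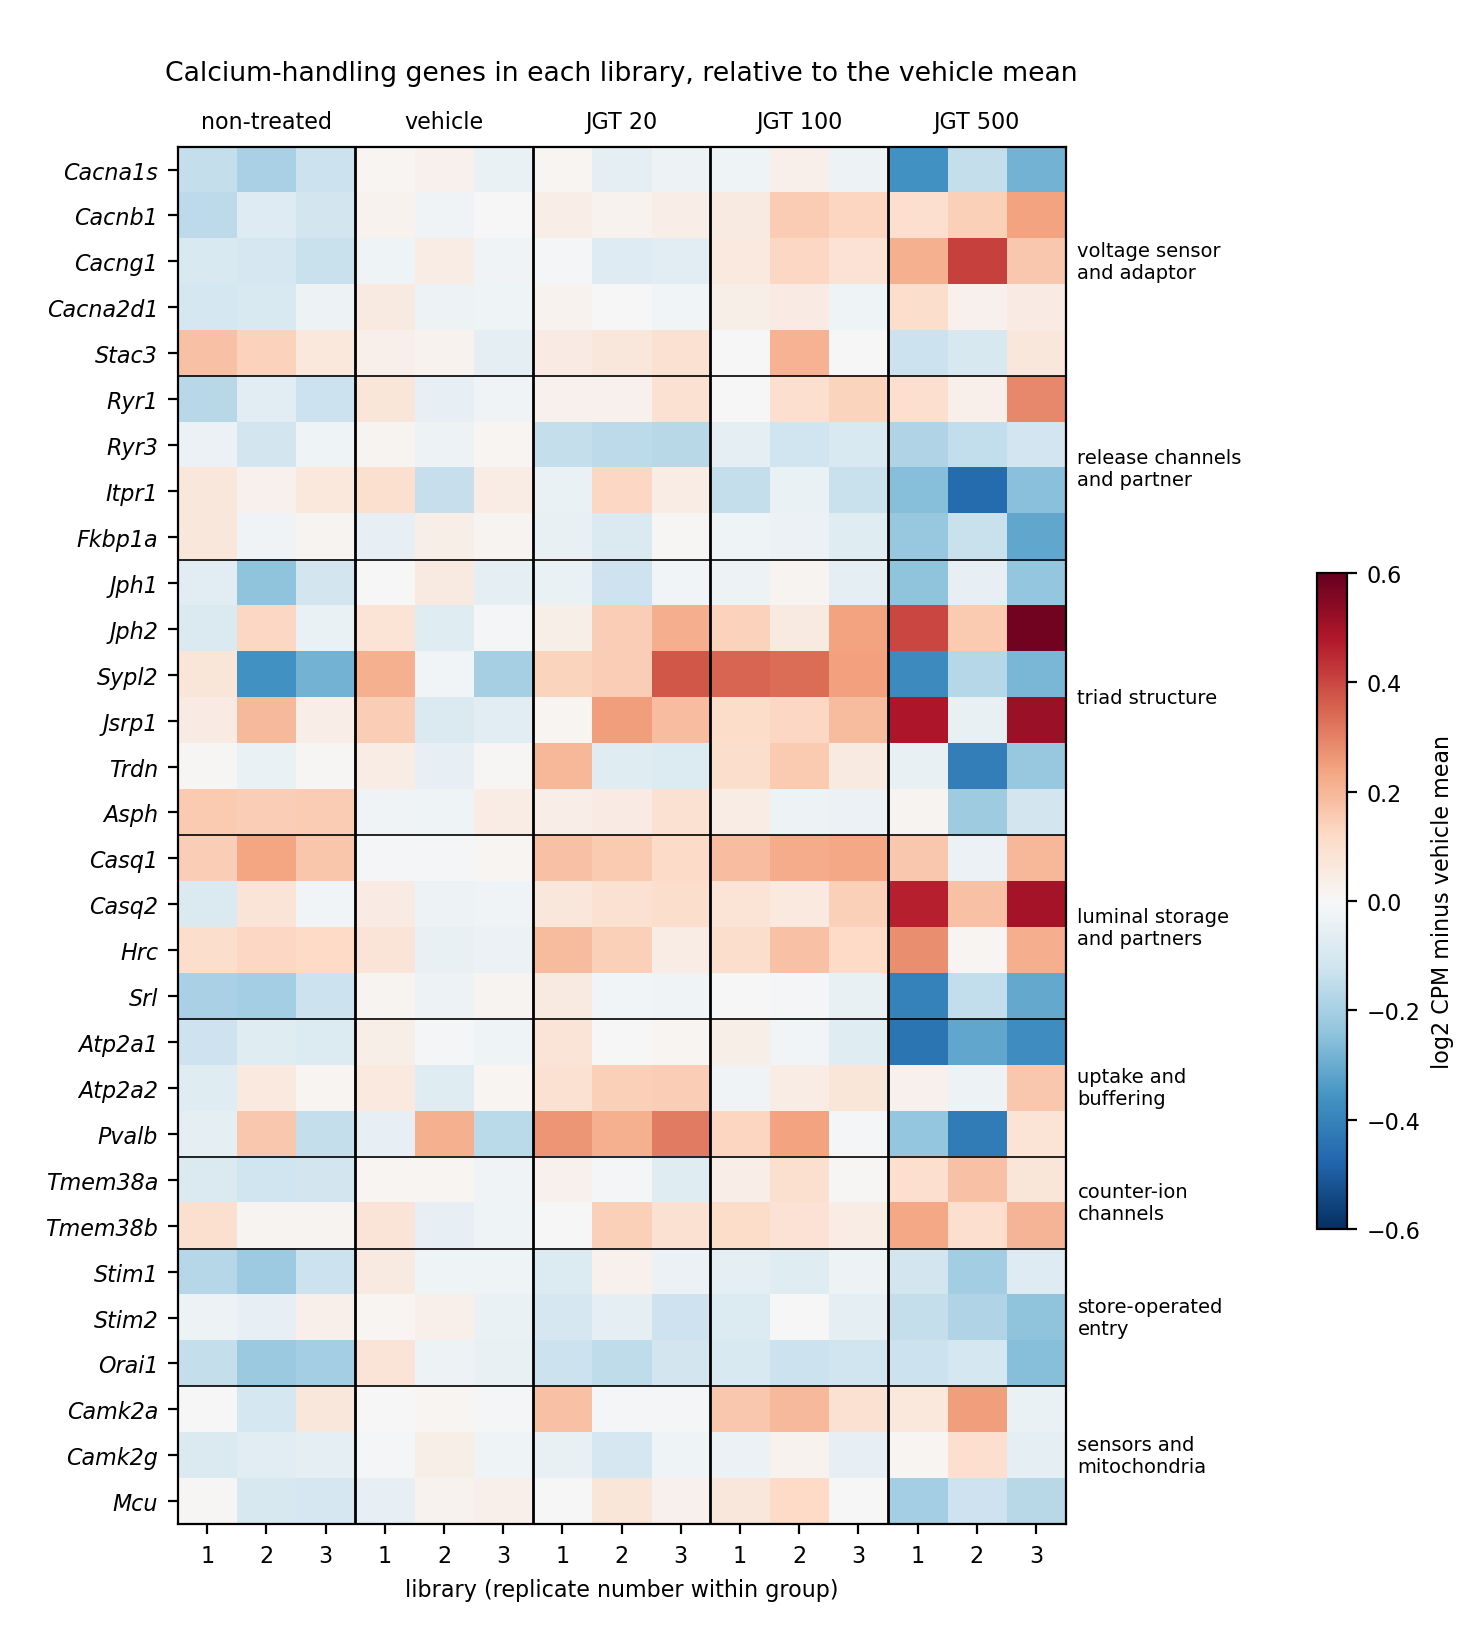
Levels of the 30 tested calcium-handling genes in each of the 15 libraries, as log2 CPM minus the mean of the vehicle libraries (colour scale from -0.6 to 0.6), with genes grouped by role and libraries by condition. The JGT 500 columns hold the strongest colours in both directions, and within them replicate 2 is paler for Jph2, Casq2, Srl and Cacna1s.

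The promoters of 4 members with large changes are shown, Jph2 and Casq2 from those that rose and Atp2a1 and Cacna1s from those that fell, so that windows of genes that rose stand beside windows of genes that fell. Each run is the strand of the gene, 5′ to 3′, from 250 bases before to 50 bases after the start in RefSeq (GRCm38.p6). Capitals mark matches to CANNTG, the E-box that myogenic bHLH factors such as MyoD are known to bind, and in Casq2 also a match to the MEF2 consensus. The windows are chr2:163397944-163398243 on the minus strand for Jph2, chr3:102086165-102086464 on the plus strand for Casq2, chr7:126463024-126463323 on the minus strand for Atp2a1 and chr1:136052561-136052860 on the plus strand for Cacna1s.
Jph2: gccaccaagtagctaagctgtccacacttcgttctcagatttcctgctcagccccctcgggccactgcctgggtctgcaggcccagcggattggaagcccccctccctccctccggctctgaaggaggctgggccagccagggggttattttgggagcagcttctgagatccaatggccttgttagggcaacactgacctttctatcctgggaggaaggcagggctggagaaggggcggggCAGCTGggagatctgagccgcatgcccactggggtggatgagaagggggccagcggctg
Casq2: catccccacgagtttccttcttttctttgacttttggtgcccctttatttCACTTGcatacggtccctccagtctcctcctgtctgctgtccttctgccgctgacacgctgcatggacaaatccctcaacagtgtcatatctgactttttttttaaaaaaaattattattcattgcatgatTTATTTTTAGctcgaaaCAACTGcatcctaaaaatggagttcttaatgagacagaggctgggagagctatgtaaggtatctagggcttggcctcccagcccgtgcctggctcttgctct
Atp2a1: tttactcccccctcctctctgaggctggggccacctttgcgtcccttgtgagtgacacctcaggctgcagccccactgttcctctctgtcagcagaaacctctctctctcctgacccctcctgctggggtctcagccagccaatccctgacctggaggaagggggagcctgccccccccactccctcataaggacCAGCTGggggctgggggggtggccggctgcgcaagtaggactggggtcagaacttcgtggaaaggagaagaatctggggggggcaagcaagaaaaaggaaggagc
Cacna1s: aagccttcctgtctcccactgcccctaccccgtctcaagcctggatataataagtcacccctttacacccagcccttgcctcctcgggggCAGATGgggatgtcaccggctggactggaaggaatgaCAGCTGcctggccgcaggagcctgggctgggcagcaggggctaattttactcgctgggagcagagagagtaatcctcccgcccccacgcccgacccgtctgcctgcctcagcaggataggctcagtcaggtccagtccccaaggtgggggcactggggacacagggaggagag
The CAGCTG form of the E-box stands in the Jph2, Atp2a1 and Cacna1s windows, upstream of the start, and not in the Casq2 window, whose E-boxes read CACTTG and CAACTG.

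RefSeq promoters were matched for 17 of the 31 members, some with more than 1 start. CANNTG, which reads the same on both strands, was found for 14 of these 17 members (82.4%), against 75% of the 27025 genes with a promoter in the table. CAGCTG, 1 form of CANNTG, was found for 8 of the 17 (47.1%), against 18.3% of all genes. Of those 8 members, Jph2 and Hrc rose, Atp2a1, Cacna1s, Fkbp1a and Orai1 fell, and Casq1 and Sypl2 were not called. Of the 9 members without CAGCTG, 3 rose, 3 fell and 3 were not called. A MEF2-type motif, CTA and TAG with 4 bases between them on either strand, was found for 0 of the 17 members and 4.23% of all genes. The fuller MEF2 consensus, searched on both strands after the sequences had been seen, was found for Casq2 and Pvalb (11.8% of members against 3.7% of all genes). A match is a description of these letters in this window, not a site in use.

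Within the voltage sensor, the pore-forming subunit fell while 2 accessory subunits rose. Cacna1s, the pore-forming and voltage-sensing subunit of the dihydropyridine receptor, had 246, 286 and 259.8 CPM in JGT 500 against 319, 323 and 308 CPM in vehicle. Every JGT 500 library lay below every vehicle library, and the log2 fold change was -0.26 ± 0.044 (SE, edgeR adjusted p = 0.000123). Cacna1s has values that are not whole in all 15 libraries and shares 1309 exon bases with Gm37759 on the opposite strand. Part of its count may depend on how shared reads were assigned, and whether this overlap is the source was not tested. Cacnb1, the beta subunit that carries the channel to the triad, had 233, 240.2 and 257 CPM in JGT 500 against 220.2, 214 and 218 CPM in vehicle. Its groups did not overlap either, with a log2 fold change of 0.16 ± 0.038 (SE, edgeR adjusted p = 0.00243). Cacng1, the gamma subunit, known to dampen the channel's current, had 322, 369 and 311 CPM in JGT 500 against 273, 287 and 274 CPM in vehicle. JGT 500 replicate 2 was the highest of all 15 libraries for Cacng1, and the log2 fold change was 0.26 ± 0.048 (SE, edgeR adjusted p = 0.000232). The 2 other members of the group were not called. Cacna2d1, the alpha2delta subunit, averaged 315 ± 8.73 CPM in JGT 500 and 303 ± 9.76 CPM in vehicle (SD, n = 3 each). Stac3, the adaptor without which the receptor does not couple to release in mouse muscle, averaged 36.5 ± 2.75 CPM in JGT 500 and 37.8 ± 1.19 CPM in vehicle.

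Of the release channels and their partner, 3 of 4 fell and the main channel was not called. Ryr1, the ryanodine receptor that releases calcium in skeletal muscle, had 670.4, 639 and 764 CPM in JGT 500 against 657, 603 and 615 CPM in vehicle. The groups overlapped, and the log2 fold change of 0.14 ± 0.055 (SE, edgeR adjusted p = 0.0516) missed the threshold. Ryr3, the isoform found mainly in developing muscle, was lower, at 32.3 ± 0.741 CPM in JGT 500 and 35.7 ± 0.667 CPM in vehicle, with a log2 fold change of -0.15 ± 0.041 (SE, edgeR adjusted p = 0.00891). Itpr1, 1 of the IP3 receptors, which are channels of the slower, ligand-gated release path, had 17.9, 15.5 and 17.9 CPM in JGT 500 against 22.8, 19.4 and 22.0 CPM in vehicle. The IP3 receptor genes outside the membership were not called, Itpr2 at 0.020 ± 0.051 (SE, edgeR adjusted p = 0.799) and Itpr3 at 0.057 ± 0.037 (SE, edgeR adjusted p = 0.248). Itpr3 averaged 155 CPM in JGT 500 and 149 CPM in vehicle, so a fall of Itpr1 is not a fall of IP3 receptors as a group. All 3 JGT 500 libraries lay below all 12 others for Itpr1, with a log2 fold change of -0.33 ± 0.069 (SE, edgeR adjusted p = 0.00099). Fkbp1a, which encodes the FKBP12 protein that binds and steadies the ryanodine receptor, had 208, 222 and 196 CPM in JGT 500 against 235, 249 and 246 CPM in vehicle. Here too the JGT 500 libraries were the 3 lowest of the 15, and the log2 fold change was -0.22 ± 0.042 (SE, edgeR adjusted p = 0.000424). Ryr1 and Ryr3 have values that are not whole in all 15 libraries and share exon bases with genes on the opposite strand (Aven for Ryr3). Part of their counts may depend on how shared reads were assigned, and whether these overlaps are the source was not tested.

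The triad's structural proteins split. Jph2, a junctophilin that tethers the transverse tubule to the reticulum, had 502, 422 and 567 CPM in JGT 500 against 402, 361 and 377 CPM in vehicle. Every JGT 500 library lay above every vehicle library, with replicate 2 the closest, and the log2 fold change of 0.39 ± 0.10 (SE, edgeR adjusted p = 0.00919) was the largest rise among the members. Jph1, the other junctophilin of skeletal muscle, went the other way, with 78.9, 90.1 and 79.4 CPM in JGT 500 against 93.4, 96.7 and 89.9 CPM in vehicle. Its groups overlapped through JGT 500 replicate 2, the log2 fold change was -0.17 ± 0.053 (SE, edgeR adjusted p = 0.0174), and the call was lost without JGT 500 replicate 1 or 3 or vehicle replicate 2 (adjusted p 0.0833, 0.0723 and 0.0821 by the same edgeR test). Trdn, triadin, which anchors calsequestrin to the ryanodine receptor, had 26.8, 20.7 and 23.6 CPM in JGT 500 against 28.5, 26.6 and 27.7 CPM in vehicle. Its groups overlapped, the log2 fold change was -0.22 ± 0.082 (SE, edgeR adjusted p = 0.0413), and the call was lost without any single vehicle library or without JGT 500 replicate 2 or 3 (edgeR adjusted p from 0.0587 to 0.127). Jsrp1, whose JP-45 protein binds both the voltage sensor and calsequestrin, had 159.8, 111 and 164 CPM in JGT 500 against 126, 108 and 109.5 CPM in vehicle. Replicates 1 and 3 of JGT 500 were the highest of all 15 libraries for Jsrp1 while replicate 2 lay within the vehicle range, and the log2 fold change of 0.34 ± 0.13 (SE, edgeR adjusted p = 0.0737) was not called. Sypl2, mitsugumin-29 of the triad membranes, and Asph, whose locus encodes junctin together with junctate and an aspartyl hydroxylase that a gene count cannot separate, were not called against vehicle. Sypl2 was near the bottom of the members in level, at 4.10 ± 0.295 CPM in JGT 500 and 4.98 ± 0.721 CPM in vehicle. Asph averaged 62.7 ± 4.96 CPM in JGT 500 and 67.1 ± 1.78 CPM in vehicle, and it shares exon bases with Clvs1 on the opposite strand.

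Among the proteins of the store's lumen, Casq2 and Hrc rose and Srl fell. Casq2, the calsequestrin isoform of heart and slow or developing skeletal muscle, had 969, 794 and 993 CPM in JGT 500 against 728, 687 and 693 CPM in vehicle. The JGT 500 libraries were the 3 highest of the 15, and the log2 fold change was 0.39 ± 0.064 (SE, edgeR adjusted p = 0.000171). Casq1, the calsequestrin of fast fibres, had 150.2, 131 and 154 CPM in JGT 500 against 134, 134 and 135 CPM in vehicle. It was not called (0.11 ± 0.047 SE, edgeR adjusted p = 0.0698). Without JGT 500 replicate 2, the lowest of the 15 libraries for Casq1, its log2 fold change against vehicle became 0.17, with an edgeR adjusted p of 0.000247. The non-treated libraries had 149, 158 and 151 CPM, above vehicle. With all libraries, Casq1 in JGT 500 against non-treated was not called and had the other sign (-0.070 ± 0.0465 SE, edgeR adjusted p = 0.273). Hrc, the histidine-rich calcium-binding protein that joins triadin to the SERCA pump, had 255, 212 and 245 CPM in JGT 500 against 222, 204 and 205 CPM in vehicle. The groups overlapped, the log2 fold change was 0.17 ± 0.055 (SE, edgeR adjusted p = 0.0219), and the call was lost without JGT 500 replicate 1 or 3 or vehicle replicate 2 or 3 (edgeR adjusted p from 0.0914 to 0.148). Srl, sarcalumenin, a luminal protein that supports SERCA, had 616, 737 and 659 CPM in JGT 500 against 825, 799 and 825 CPM in vehicle. The groups were apart for Srl, with replicate 2 of JGT 500 again the nearest to vehicle, and the log2 fold change was -0.28 ± 0.048 (SE, edgeR adjusted p = 0.000131). For Jph2, Casq2 and Jsrp1 the library with the lowest mitochondrial share was the highest of its group in 3, 3 and 4 of the 5 groups, and the part of that share in these results was not tested.

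The largest fall among the members was in the main pump of fast muscle. Atp2a1, which encodes SERCA1, had 559.6, 611 and 584 CPM in JGT 500 against 775, 754 and 743 CPM in vehicle, 22.8% lower by the fit. The 12 libraries of the other 4 groups lay between 695 and 799.6 CPM, above every JGT 500 library, and the log2 fold change was -0.37 ± 0.039 (SE, edgeR adjusted p = 3.26e-07). Atp2a2, which encodes SERCA2 of heart, slow and developing muscle, was not called, at 1050.0 ± 72.2 CPM in JGT 500 and 1011 ± 46.1 CPM in vehicle. Pvalb, parvalbumin, the soluble calcium buffer of fast fibres, was expressed at a low level, 1.70, 1.49 and 2.12 CPM in JGT 500 against 1.93, 2.31 and 1.79 CPM in vehicle, and was not called. Sln, sarcolipin, a small inhibitor of SERCA, was the 1 member that did not pass the filter on low counts. It had 0 counts over the 3 JGT 500 libraries and 1 count over the 3 vehicle libraries, where 3 counts over the JGT 500 group would be 0.0328 CPM, so no difference was detectable at this depth. Atp2a1 has values that are not whole in all 15 libraries and shares exon bases with Rabep2 on the opposite strand.

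**Figure D2:**
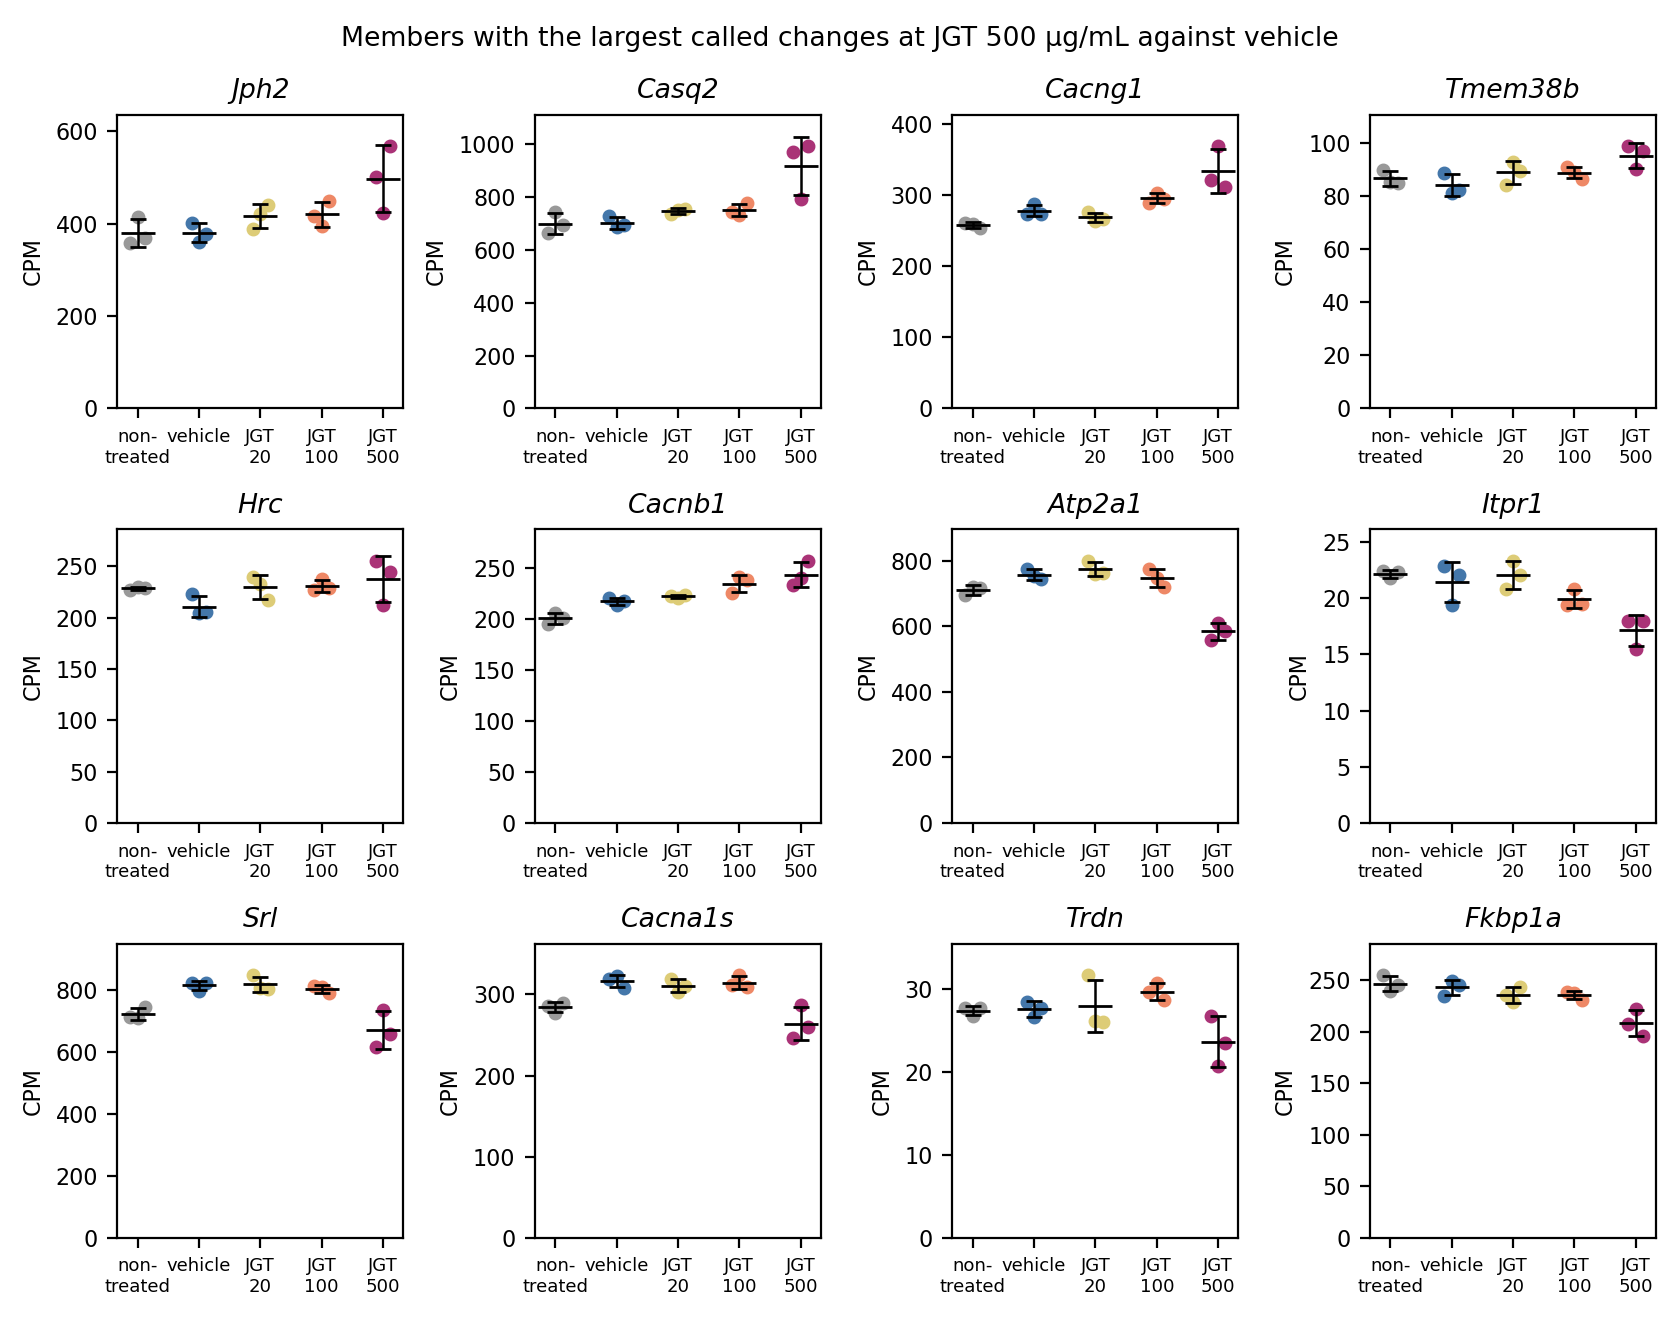
CPM in each library (points) for the 12 members with the largest called changes at JGT 500 against vehicle, with the group mean (wide bar) and SD (whiskers, n = 3), groups running from non-treated and vehicle through rising JGT dose, each axis starting at 0. The JGT 500 points stand above the vehicle points for Jph2, Casq2, Cacng1, Tmem38b and Cacnb1 and below them for Atp2a1, Itpr1, Srl, Cacna1s and Fkbp1a, while those of Hrc and Trdn overlap with vehicle.

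Both counter-ion channels rose and all 3 members of store-operated entry fell against vehicle. Tmem38b, which encodes the TRIC-B channel, had 98.9, 90.1 and 96.9 CPM in JGT 500 against 88.8, 81.2 and 82.5 CPM in vehicle, with a log2 fold change of 0.18 ± 0.047 (SE, edgeR adjusted p = 0.00616). Tmem38a, which encodes TRIC-A, the abundant potassium channel of the muscle reticulum, had 257, 270.3 and 251 CPM in JGT 500 against 241, 241 and 236 CPM in vehicle. Its log2 fold change was 0.12 ± 0.037 (SE, edgeR adjusted p = 0.0181), and the call was lost without JGT 500 replicate 2 or vehicle replicate 3 (edgeR adjusted p 0.0687 and 0.0942). The groups were apart for both TRIC genes, though narrowly for Tmem38b. Stim1, the calcium sensor of the store, averaged 48.8 ± 2.26 CPM in JGT 500 and 53.6 ± 1.76 CPM in vehicle, with a log2 fold change of -0.13 ± 0.044 (SE, edgeR adjusted p = 0.0252). Stim2, its more sensitive relative, averaged 89.5 ± 3.08 CPM in JGT 500 and 102 ± 2.49 CPM in vehicle, with a log2 fold change of -0.19 ± 0.039 (SE, edgeR adjusted p = 0.000827). Orai1, the pore that STIM proteins open, had 42.8, 43.6 and 39.2 CPM in JGT 500 against 49.4, 45.9 and 45.3 CPM in vehicle, with a log2 fold change of -0.16 ± 0.046 (SE, edgeR adjusted p = 0.0094). The vehicle libraries were the high ones for Orai1, above every other library, and its means were 43.3 CPM in JGT 100, 42.8 CPM in JGT 20 and 41.0 CPM in non-treated. Without 1 library the Stim1 call was lost (without JGT 500 replicate 2 or vehicle replicate 1, edgeR adjusted p 0.0742 and 0.095), as was that of Orai1 (without JGT 500 replicate 3 or vehicle replicate 1, edgeR adjusted p 0.0608 and 0.0566). Stim2 fell against non-treated too (log2 fold change -0.17 ± 0.039 SE, edgeR adjusted p = 0.0018), whereas Stim1 and Orai1 were not called against non-treated, and the difference between the 2 comparisons was not tested. Outside the membership, Orai2 (0.024 ± 0.051 SE, edgeR adjusted p = 0.747) and Orai3 (0.050 ± 0.069 SE, edgeR adjusted p = 0.614) were not called in JGT 500 against vehicle. From the same neighbouring list, Saraf was higher (0.12 ± 0.037 SE, edgeR adjusted p = 0.017). Stimate, listed as Tmem110, was lower (-0.22 ± 0.074 SE, edgeR adjusted p = 0.0273).

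Of the calcium-dependent kinases and the mitochondrial uniporter, Mcu was called and Camk2a and Camk2g were not. Mcu, the pore of the uniporter that takes calcium into mitochondria, had 135, 143 and 138 CPM in JGT 500 against 150.0, 158 and 158 CPM in vehicle. All 3 JGT 500 libraries were below the other 12, and the log2 fold change was -0.16 ± 0.041 (SE, edgeR adjusted p = 0.00402). Camk2a, a calmodulin-dependent kinase subunit best known from brain, averaged 204 ± 21.2 CPM in JGT 500 and 191 ± 1.42 CPM in vehicle. Camk2g, the related subunit of many tissues, had 122, 130.0 and 117 CPM in JGT 500 against 120.2, 124 and 119 CPM in vehicle.

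At the lower doses 1 member passed the test against vehicle. At JGT 100, Casq1 rose, with 153, 156 and 158 CPM against 134, 134 and 135 CPM in vehicle, a log2 fold change of 0.21 ± 0.046 (SE, edgeR adjusted p = 0.00951). It was the 1 of 30 members called higher, where 2.09% of all tested genes were, and edgeR called 0 members lower, where 2.22% of all genes were. At an unadjusted p under 0.05, 5 members were higher and 2 lower, and DESeq2 also called 1 and 0. No share over all genes is given for these 2 rules. The vehicle libraries were the low ones for Casq1, since the non-treated libraries had 149, 158 and 151 CPM and JGT 100 against non-treated was not called (0.030 ± 0.046 SE, edgeR adjusted p = 0.775). At JGT 20, edgeR called 0 of 30 members in either direction, where 0.325% of all genes were called. Of those members, 3 were higher and 3 lower at an unadjusted p under 0.05, and DESeq2 also called 0, again without a share over all genes for either rule. The smallest adjusted p at JGT 20 was that of Ryr3, with 32.4, 32.0 and 31.9 CPM in JGT 20 against 36.2, 35.0 and 36.1 CPM in vehicle (log2 fold change -0.16 ± 0.041 SE, edgeR adjusted p = 0.13). With the non-treated libraries as control, JGT 20 had 2 members higher, Cacnb1 (0.15 ± 0.038 SE, edgeR adjusted p = 0.0395) and Srl (0.18 ± 0.048 SE, edgeR adjusted p = 0.0432), and 0 lower, where 1.19% and 1.92% of all genes were called. In JGT 100, 7 members were higher and 1 lower against non-treated, where 4.29% and 4.83% of all genes were called. They were Cacnb1 (0.23 ± 0.038 SE, edgeR adjusted p = 0.000518), Cacng1, Cacna1s, Ryr1, Sypl2 (0.49 ± 0.12 SE, edgeR adjusted p = 0.012), Srl and Tmem38a, higher, and Asph, lower. Cacnb1 averaged 201 ± 5.41 CPM in non-treated, 217 ± 3.23 CPM in vehicle, 222 ± 1.43 CPM in JGT 20, 235 ± 8.37 CPM in JGT 100 and 243 ± 12.2 CPM in JGT 500 (SD, n = 3 each).

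The solvent comparison put 1 member past the threshold. Orai1 had 49.4, 45.9 and 45.3 CPM in vehicle against 42.4, 40.1 and 40.6 CPM in non-treated, with a log2 fold change of 0.19 ± 0.046 (SE, edgeR adjusted p = 0.0443), where 0.553% of all genes were called higher and 0.754% lower. The groups were apart, but the call was lost without any 1 of the 6 libraries (edgeR adjusted p from 0.0764 to 0.186). By edgeR 0 members were lower, with 11 higher and 4 lower at an unadjusted p under 0.05, and DESeq2 called 3 higher and 1 lower. The shares of all genes given above are those of adjusted edgeR calls and do not apply to the counts by unadjusted p or DESeq2. The ranges of vehicle and non-treated were apart for 15 of the 30 members, against 26.8% of all tested genes. Stim1 (0.17 ± 0.045 SE, edgeR adjusted p = 0.0574), Srl (0.18 ± 0.048 SE, edgeR adjusted p = 0.0752) and Cacna1s (0.16 ± 0.044 SE, edgeR adjusted p = 0.0841) were not called and had higher levels in vehicle. Casq1 went the other way, with the smallest adjusted p of the uncalled members (-0.18 ± 0.047 SE, edgeR adjusted p = 0.056). The 3 vehicle libraries enter both this comparison and those of each dose with vehicle, and the values against each control are given side by side.

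Against the non-treated libraries, JGT 500 gave 8 members higher and 6 lower, where 16.3% and 15.5% of all tested genes were called. The strongest rises were those of Casq2 (0.39 ± 0.064 SE, edgeR adjusted p = 0.000137), Jph2 (0.39 ± 0.10 SE, edgeR adjusted p = 0.00963) and Cacng1 (0.37 ± 0.048 SE, edgeR adjusted p = 3.99e-06). Ryr1, not called against vehicle, was higher against non-treated (0.27 ± 0.055 SE, edgeR adjusted p = 0.00105), as was Cacna2d1 (0.13 ± 0.036 SE, edgeR adjusted p = 0.00697). The falls included Itpr1 (-0.38 ± 0.069 SE, edgeR adjusted p = 0.000259), Atp2a1 (-0.28 ± 0.039 SE, edgeR adjusted p = 1.23e-05), Fkbp1a (-0.24 ± 0.042 SE, edgeR adjusted p = 0.000159) and Asph (-0.25 ± 0.047 SE, edgeR adjusted p = 0.000332). Stac3 was lower as well (-0.18 ± 0.058 SE, edgeR adjusted p = 0.0242). Of the 19 members called against vehicle, 10 were called the same way against non-treated and 0 the opposite way. Those that were not called were Cacna1s, Ryr3, Jph1, Trdn, Hrc, Srl, Stim1, Orai1 and Mcu. For Srl the call depended on the control, since its non-treated libraries had 713, 709.7 and 746 CPM and the log2 fold change against them was -0.11 ± 0.048 (SE, edgeR adjusted p = 0.0982).

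JGT 500 against JGT 20 compares both ends of the dose range among libraries with the same form of sample code. Whether JGT 20 held the 0.1% DMSO of JGT 500 is not given, so dose and any difference in solvent cannot be told apart in this comparison. Here 4 members rose and 10 fell, where 11.1% and 12.2% of all tested genes were called. The ranges of the 2 groups were apart for 15 of the 30 members and for 32.5% of all tested genes. The rises were those of Cacng1, Casq2, Tmem38a and Cacnb1. Cacng1 had 322, 369 and 311 CPM in JGT 500 against 277, 264 and 266 CPM in JGT 20, with a log2 fold change of 0.31 ± 0.048 (SE, edgeR adjusted p = 4.72e-05). Casq2 had 969, 794 and 993 CPM in JGT 500 against 737, 749 and 756 CPM in JGT 20, with a log2 fold change of 0.30 ± 0.064 (SE, edgeR adjusted p = 0.00229). Tmem38a had 257, 270.3 and 251 CPM in JGT 500 against 244, 237 and 227 CPM in JGT 20, with a log2 fold change of 0.14 ± 0.036 (SE, edgeR adjusted p = 0.00919). The 2 groups did not overlap for any of these 3 genes. Jph2, with 388, 419.6 and 441 CPM in JGT 20, was not called in this comparison (0.26 ± 0.10 SE, edgeR adjusted p = 0.0818) and its JGT 20 libraries overlapped with JGT 500. Without JGT 500 replicate 2 it was called (log2 fold change 0.36, edgeR adjusted p 0.00848). Leaving out that library gave 9 members called higher in place of 4, and leaving out JGT 20 replicate 3 gave 2. No share over all genes is given for these fits, so the change in count cannot be read as particular to the members.

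The falls against JGT 20 included 3 genes that were not called against vehicle, Sypl2, Pvalb and Asph. Sypl2 had 3.80, 4.39 and 4.09 CPM in JGT 500 against 5.44, 5.48 and 6.42 CPM in JGT 20, with a log2 fold change of -0.49 ± 0.12 (SE, edgeR adjusted p = 0.00534), the largest of any member. Pvalb had 1.70, 1.49 and 2.12 CPM in JGT 500 against 2.40, 2.31 and 2.48 CPM in JGT 20, with a log2 fold change of -0.45 ± 0.15 (SE, edgeR adjusted p = 0.0354). The groups were apart for both, but both are low in level, and the Pvalb call was lost without any JGT 20 library or without JGT 500 replicate 1 or 2 (edgeR adjusted p from 0.0575 to 0.123). Atp2a1 had 559.6, 611 and 584 CPM in JGT 500 against 799.6, 759.6 and 763 CPM in JGT 20, with a log2 fold change of -0.40 ± 0.039 (SE, edgeR adjusted p = 1.34e-07). The remaining falls were those of Itpr1, Srl, Trdn, Cacna1s, Mcu and Fkbp1a. In all, 11 members were called the same way against vehicle and against JGT 20, comparisons that share the JGT 500 libraries. The 7 that were also called that way against non-treated were Cacnb1, Cacng1, Casq2 and Tmem38a, higher, and Atp2a1, Fkbp1a and Itpr1, lower. Of these 7, the calls of Cacnb1 and Tmem38a against JGT 20 were not stable: that of Cacnb1 was lost without JGT 500 replicate 3 or any JGT 20 library (edgeR adjusted p from 0.0521 to 0.115), and that of Tmem38a without JGT 20 replicate 3 (0.0822 by the same edgeR test). Among the 14 members called against JGT 20, 9 kept the call without any single library. Besides Cacnb1, Tmem38a and Pvalb, Trdn lost it without JGT 500 replicate 2 or 3 or JGT 20 replicate 1 (edgeR adjusted p from 0.0792 to 0.2) and Asph without JGT 20 replicate 3 (edgeR adjusted p 0.0588). Of the 18 myotube markers 1 was higher and 5 were lower against JGT 20, and their part in these calls was not tested. No member of store-operated entry was called against JGT 20. The log2 fold changes were -0.10 ± 0.044 (SE, edgeR adjusted p = 0.0974) for Stim1, -0.094 ± 0.039 (SE, edgeR adjusted p = 0.0889) for Stim2 and -0.030 ± 0.046 (SE, edgeR adjusted p = 0.685) for Orai1.

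**Figure D3:**
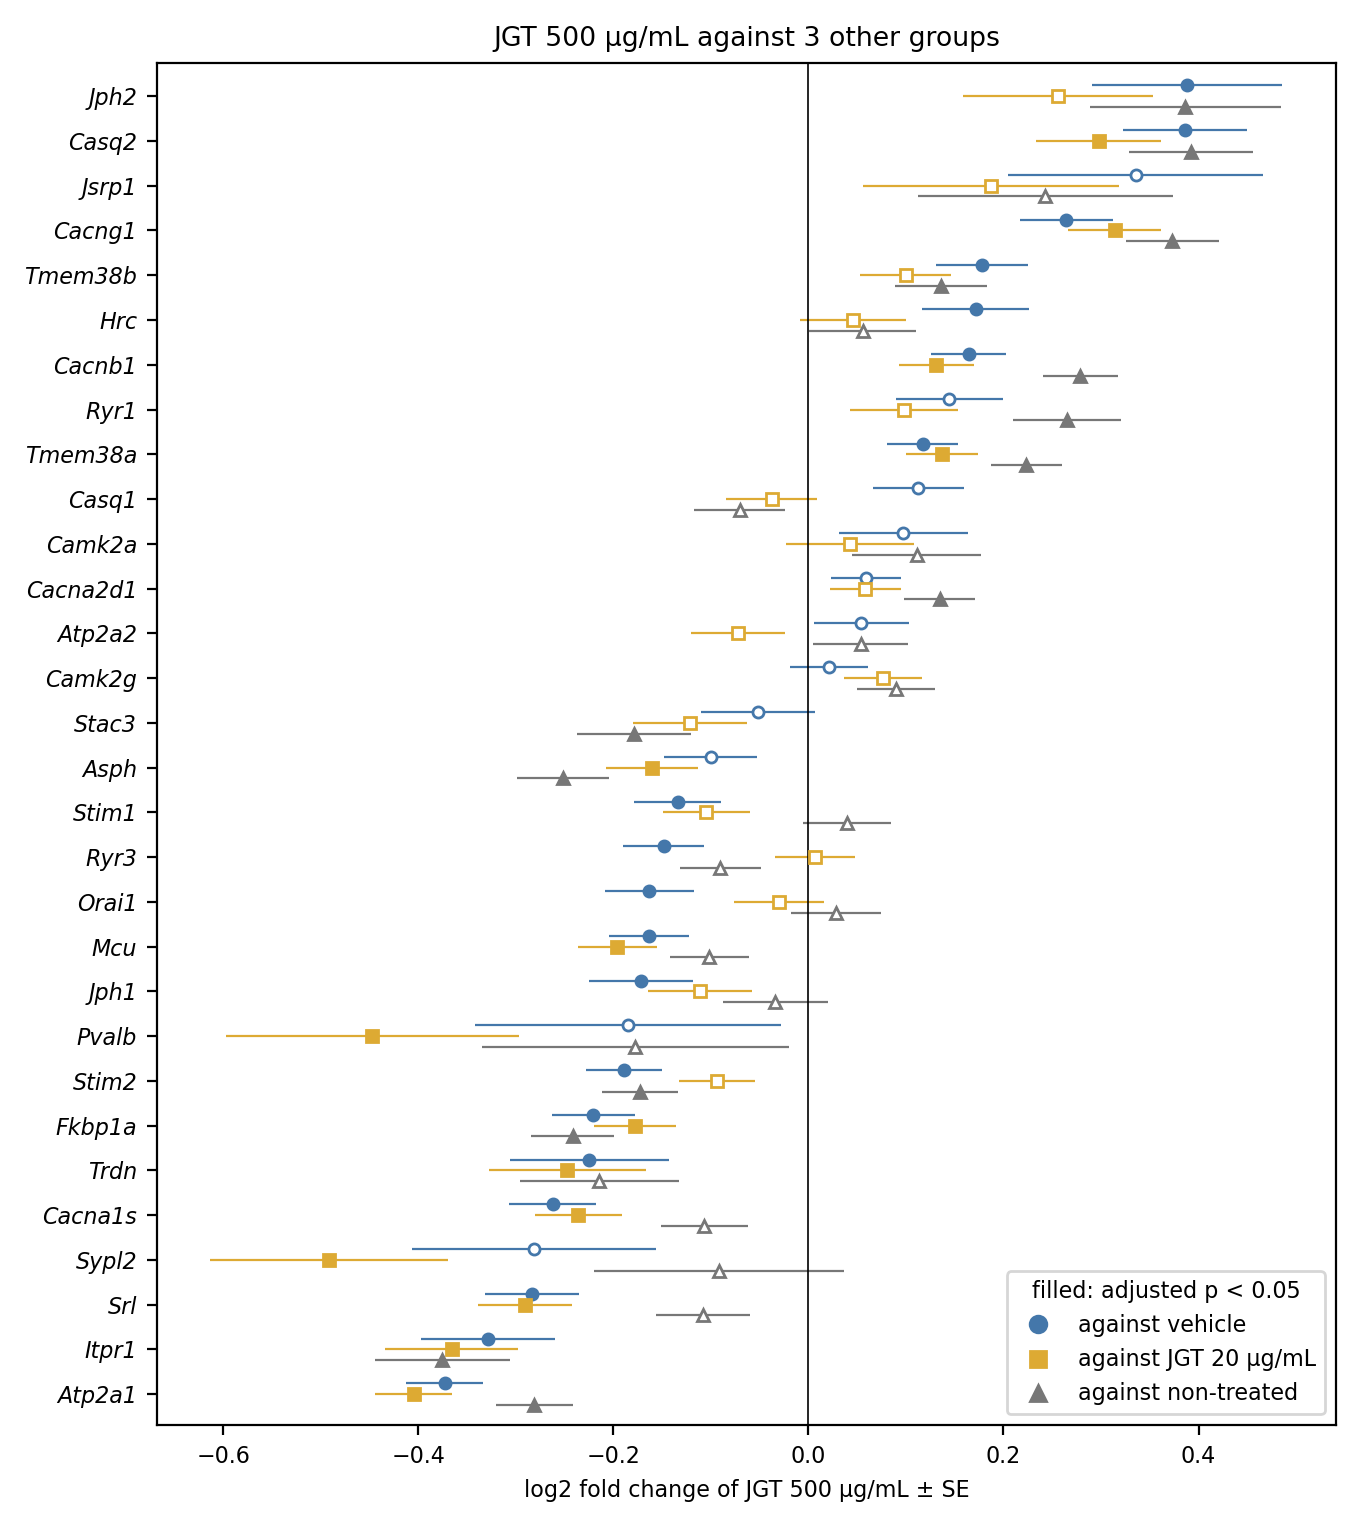
Log2 fold change (x axis) with its SE for each of the 30 tested members (y axis) in JGT 500 against vehicle (circles), JGT 20 (squares) and non-treated (triangles), filled where the edgeR adjusted p was below 0.05. Casq2, Cacng1, Cacnb1 and Tmem38a at the top and Fkbp1a, Itpr1 and Atp2a1 at the bottom are filled in all 3 comparisons, while Orai1, Stim1, Hrc, Jph1 and Ryr3 are filled against vehicle only.

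Levels can be compared between genes only per length of transcript, here as CPM per kb of exon. On that scale Casq2 led the members, with 336 ± 39.8 CPM per kb in JGT 500 and 257 ± 8.04 CPM per kb in vehicle. Cacng1 came next, at 267 ± 24.7 in JGT 500 and 223 ± 6.31 in vehicle, and its vehicle level did not differ beyond the spread from that of Atp2a1, at 168 ± 7.38 in JGT 500 and 218 ± 4.74 in vehicle. Atp2a2 stood at 173 ± 11.9 CPM per kb in JGT 500 and 166 ± 7.59 in vehicle, so that in JGT 500 both pumps lay within each other's spread on this scale. The scale divides by the union of a gene's exons, 3477 bases for Atp2a1 and 6081 for Atp2a2. Which transcripts the cells made was not examined, so equal levels of the 2 pumps are not shown. Ryr1 was at 31.6 ± 2.98 CPM per kb in JGT 500 and 28.6 ± 1.31 in vehicle. The lowest tested members were Sypl2 (0.936 ± 0.0675 in JGT 500 and 1.14 ± 0.165 in vehicle) and Itpr1 (0.934 ± 0.0768 in JGT 500 and 1.17 ± 0.0983 in vehicle), which in vehicle did not differ beyond their spread. Ryr3 followed at 1.70 ± 0.0391 CPM per kb in JGT 500 and 1.88 ± 0.0351 in vehicle.

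Ratios of paralogs within a library do not depend on the scaling of that library. Their size depends on the exon lengths used, which are the same in all groups. The ratio of Atp2a1 to Atp2a2, both per kb, was 0.978 ± 0.091 in JGT 500 and 1.31 ± 0.053 in vehicle (SD, n = 3 each). It was 1.23 ± 0.033 in non-treated, 1.23 ± 0.061 in JGT 20 and 1.27 ± 0.089 in JGT 100, and the JGT 500 libraries lay below all 12 others. The ratio of Casq2 to Casq1 was 4.50 ± 0.16 in JGT 500 and 3.73 ± 0.13 in vehicle, and it was 3.27 ± 0.086 in non-treated, 3.58 ± 0.12 in JGT 20 and 3.44 ± 0.095 in JGT 100. The JGT 500 libraries, replicate 2 included, lay above all others. The ratio of Jph2 to Jph1 was 7.12 ± 1.5 in JGT 500 and 4.79 ± 0.36 in vehicle. JGT 500 was above vehicle in each library but overlapped with JGT 20 (5.47 ± 0.39), JGT 100 (5.37 ± 0.47) and non-treated (5.30 ± 0.77). The ratio of Ryr1 to Ryr3 was 18.6 ± 1.5 in JGT 500 and 15.2 ± 0.53 in vehicle. Here JGT 20, at 17.5 ± 0.59, and JGT 100, at 17.1 ± 1.1, overlapped with JGT 500. Each of the non-overlapping cases had an exact two-sided permutation p of 0.1, the smallest that 3 against 3 libraries allow, and an adjusted p of 0.21 over the 21 ratio tests, so none could pass the threshold. The ratios Stim1 to Stim2, Camk2a to Camk2g and Tmem38a to Tmem38b overlapped between JGT 500 and vehicle.

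**Figure D4:**
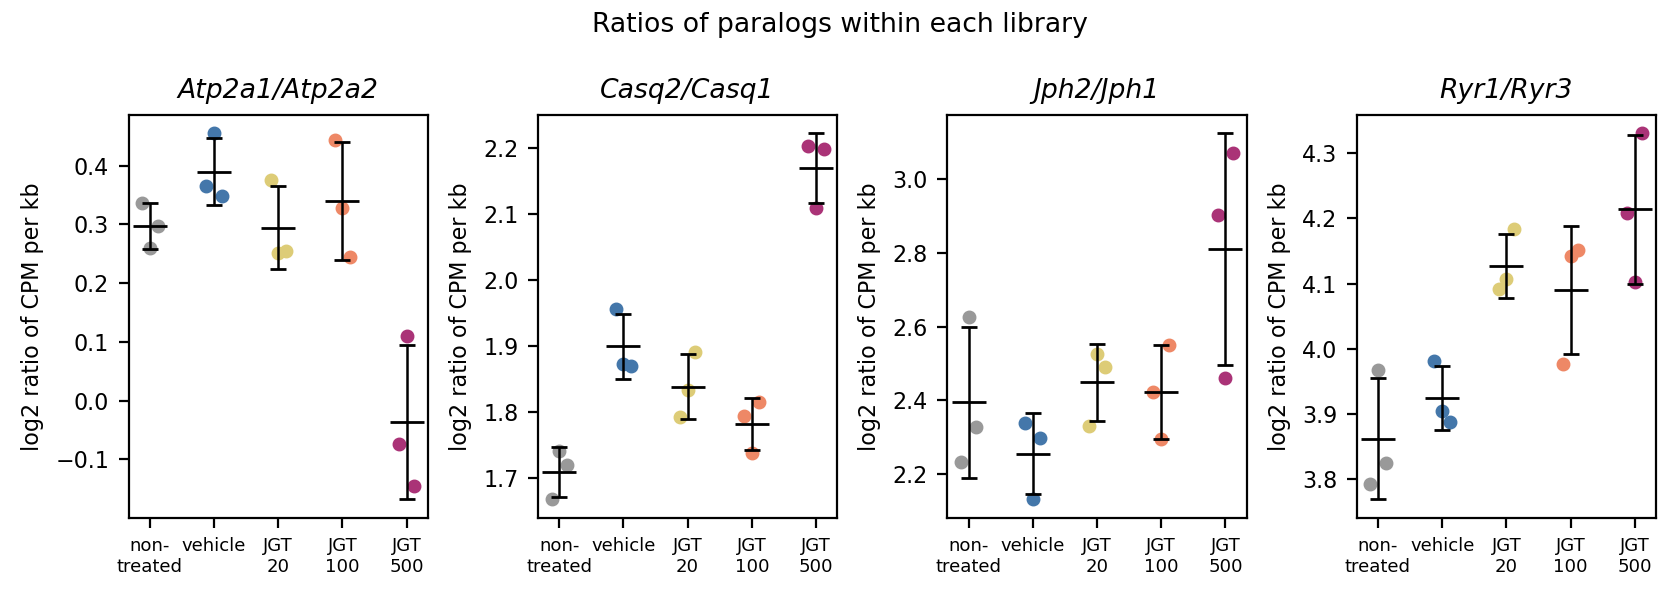
Log2 ratio of CPM per kb between paralogs in each library (points), with group mean (wide bar) and SD (whiskers, n = 3), groups running from non-treated and vehicle through rising JGT dose; the axes do not start at 0. JGT 500 stands below every other group for Atp2a1/Atp2a2 and above every other group for Casq2/Casq1, and overlaps with JGT 20 for Jph2/Jph1 and Ryr1/Ryr3.

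Genes next to the calcium machinery were read from 6 lists that share no member with it. Of 12 proteins that shape transverse tubules and triads, 6 were higher in JGT 500 than in vehicle and 0 lower, with a median log2 fold change of 0.153. They included Bin1, which bends the tubule membrane (0.37 ± 0.064 SE, edgeR adjusted p = 0.000232), Cav3, the muscle caveolin (0.32 ± 0.048 SE, edgeR adjusted p = 2.9e-05), and the caveolae protein Cavin4, listed as Murc (0.20 ± 0.039 SE, edgeR adjusted p = 0.000405). Of this list 0 were lower at an unadjusted p under 0.05 too, DESeq2 gave 6 higher and 0 lower, and edgeR without JGT 500 replicate 2 gave 7 and 1. Of 11 mitochondrial calcium genes, 4 were higher and 0 lower (median 0.0448), whereas the pore gene Mcu fell. They included Slc8b1, the mitochondrial sodium-calcium exchanger (0.35 ± 0.051 SE, edgeR adjusted p = 1.67e-05), Mcur1, a uniporter regulator (0.23 ± 0.058 SE, edgeR adjusted p = 0.00425), and Letm1, an inner-membrane ion exchanger (0.21 ± 0.047 SE, edgeR adjusted p = 0.00151). Of the mitochondrial list, 1 was lower at an unadjusted p under 0.05, DESeq2 gave 4 higher and 0 lower, and edgeR without JGT 500 replicate 2 gave 4 and 2. Over all tested genes the median was 0.00617, with 16.5% higher and 16.8% lower, by the main edgeR fit. Those shares do not apply to the counts by unadjusted p, by DESeq2 or without JGT 500 replicate 2.

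The largest changes near the calcium machinery were in genes outside the membership. Of 18 tested calcium sensor, calcineurin and NFAT genes, 3 were higher and 5 lower (median 0.00244). Nfatc2, a calcineurin-regulated transcription factor, had 0.300, 0.293 and 0.458 CPM in JGT 500 against 4.09, 3.24 and 3.98 CPM in vehicle (log2 fold change -3.43 ± 0.23 SE, edgeR adjusted p = 4.36e-10). Camk2b, the beta subunit beside the uncalled Camk2a and Camk2g, was lower (-0.39 ± 0.060 SE, edgeR adjusted p = 3.82e-05), and Rcan2, a calcineurin regulator, higher (0.37 ± 0.047 SE, edgeR adjusted p = 3.71e-06). Of 11 tested plasma membrane pumps, exchangers and entry channels, 2 were higher and 4 lower (median 0.0144). Atp2b4, a plasma membrane calcium pump, had 102, 105 and 93.0 CPM in JGT 500 against 179, 179.9 and 185 CPM in vehicle (log2 fold change -0.86 ± 0.046 SE, edgeR adjusted p = 1.54e-11). Piezo1, a stretch-gated channel (-0.30 ± 0.035 SE, edgeR adjusted p = 1.48e-06), and Slc8a3, a sodium-calcium exchanger (-1.14 ± 0.21 SE, edgeR adjusted p = 0.00024) were lower as well. Of 16 general reticulum calcium proteins, 4 were higher and 3 lower (median 0.0029), with 3 EF-hand proteins of the secretory lumen on both sides. Sdf4 was higher (0.16 ± 0.032 SE, edgeR adjusted p = 0.00062), and Calu (-0.15 ± 0.030 SE, edgeR adjusted p = 0.00065) and Rcn1 (-0.17 ± 0.036 SE, edgeR adjusted p = 0.00126) were lower.

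Paralogs of the members that are known mainly from heart, smooth muscle or nerve were mostly at low levels, and 9 of 20 passed the filter. Of those 9, 2 were higher and 4 lower (median -0.169). Cacna2d2, a relative of the uncalled Cacna2d1, had 1.13, 1.26 and 1.16 CPM in JGT 500 against 5.17, 5.51 and 6.17 CPM in vehicle (log2 fold change -2.24 ± 0.14 SE, edgeR adjusted p = 1.91e-10). Of the relatives of Stac3, Stac was lower (-1.76 ± 0.23 SE, edgeR adjusted p = 6.67e-06) and Stac2 higher (0.34 ± 0.045 SE, edgeR adjusted p = 5.87e-06). The sum of the smooth muscle markers given above was lower beside these genes, and its part in them was not tested. Without JGT 500 replicate 2 the counts of higher and lower genes were 6 and 6 for the sensor list, 2 and 5 for the plasma membrane list, 6 and 5 for the general reticulum list and 2 and 4 for these paralogs. No share over all genes is given for that fit.

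**Figure D5:**
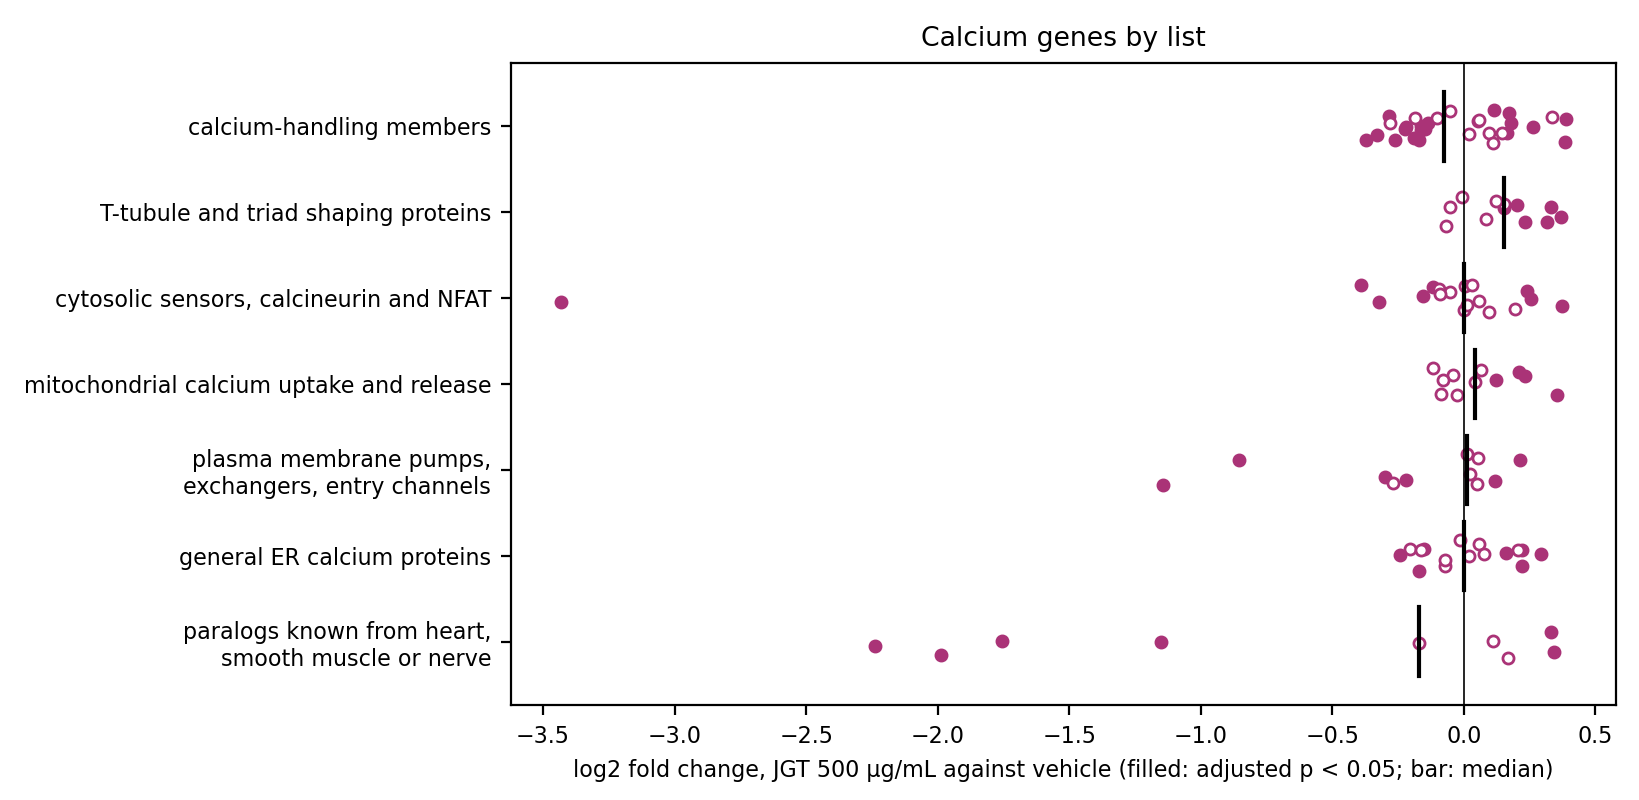
Log2 fold change (x axis) of JGT 500 against vehicle for the 30 tested members and for the tested genes of 6 neighbouring lists (each point 1 gene, filled where the edgeR adjusted p was below 0.05, bar at the median of the list). The members lie between -0.373 and 0.388, the shaping proteins mostly to the right of 0, and single genes such as Nfatc2 at -3.43 and Cacna2d2 at -2.24 far to the left.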

How the data were processed

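Per the labels' protocols, mRNA libraries that keep the strand were built from total RNA with a directional MGI kit and read from both ends over 100 bp. The submitters' processing notes name RSEM 1.3.3, STAR 2.7.3a, Trim Galore 0.6.5, FastQC 0.11.9 and the genome GRCm38 (mm10). Neither the annotation nor the strand setting used for counting is given there, so genes that overlap on opposite strands may share counts. Exon bases were shared with another gene for 12 members, on the same strand for Tmem38b and on the opposite strand for the others. The deposited values are expected counts, as RSEM estimates them, 1 row a gene symbol and without normalization by the authors. Of its values 9.34% were not whole (tolerance 0.005), and all were rounded. Depth ranged from 26012844 to 36854199 counts per library.

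Columns were matched to samples by the code in each sample's description, and groups came from the treatment label. All 15 libraries entered 1 fit with a mean per group in edgeR 4.0.16 (filterByExpr, TMM factors of 0.988 to 1.02, glmQLFit with robust dispersions, 10 residual degrees of freedom), with a common dispersion of 0.00282. Two-sided quasi-likelihood F tests were adjusted by Benjamini-Hochberg over 14461 genes, and a gene was called below 0.05. CPM are rounded counts per 1000000, scaled by TMM, given per library in replicate order or as mean ± SD of 3 libraries, and ± after a log2 fold change is its SE. CPM per kb uses the union of exons in GENCODE M21. The fit was tested on simulated data. Alternatives were DESeq2 1.42.0, other scaling, no filter, a replicate block, 2 groups alone, the other control, and each library left out. No share over all genes is given for calls by DESeq2, at an unadjusted p, from 2 groups alone or with a library left out. The members, the 6 neighbouring lists and the marker lists were chosen with earlier results of these data known. By the naming rule, values per library are given for the 6 called members that rose most and the 6 that fell most in JGT 500 against vehicle and for 3 and 3 in the other comparisons, and each neighbouring list names the 3 called genes with the smallest p. Values per library of further members were added after their values were seen. Of 155 list symbols, 7 were found under an older symbol. Deviations of same-numbered libraries from their group means did not correlate above 0.1 in every pair, so the numbers were not taken as pairs.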

Additional observations from a re-analysis of the deposited data

How the results depend on the processing

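For JGT 500 against vehicle, the 7 higher and 12 lower members became 5 and 7 with only those 2 groups in the fit and 8 and 6 with non-treated as the control; without single libraries they ran from 5 to 9 and from 9 to 12. For JGT 100 against vehicle, 1 higher and 0 lower became 4 and 0 with only the 2 groups and 7 and 1 with non-treated as the control. For JGT 20, 0 higher became 1 and 2 under the same changes. For vehicle against non-treated, 1 higher and 0 lower became 3 and 1 by DESeq2, 6 and 2 with only the 2 groups, 1 and 1 with no filter, and 0 higher without any single library. For JGT 500 against JGT 20, 4 higher and 10 lower became 2 and 7 with only the 2 groups and ran from 2 to 9 and from 8 to 10 without single libraries. The cause of these moves was not tested, beyond fewer libraries entering the fits of 2 groups. Directions reversed in 2 cases, both with non-treated as the control at JGT 500, where Orai1 had a log2 fold change of 0.029 (edgeR adjusted p 0.68) and Stim1 one of 0.040 (0.542).

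Same-numbered JGT libraries of different doses share the start of their sample codes, and what that start marks is not stated. Same-numbered libraries otherwise share only a replicate number. With it as a replicate block, the calls were 8 higher and 12 lower for JGT 500 against vehicle, 1 and 0 for JGT 100, 0 and 0 for JGT 20, 1 and 0 for vehicle against non-treated, and 4 and 10 for JGT 500 against JGT 20. Scaling by library totals alone moved the calls over all genes at JGT 500 to 2697 higher and 2217 lower from 2387 and 2428, and those of the members to 9 and 10. Trdn lost its call against vehicle under library totals (edgeR adjusted p 0.0525) and with no filter (0.0558), and DESeq2 called Jph2 against JGT 20 (0.0155). Depth left Sln at no more than 1 count in any library.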
